A study of Mus musculus with 26 samples.

Results

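A stretch of mouse chromosome 7 that holds 72 protein-coding genes was mapped as a locus for how abundant ILC2s (group 2 innate lymphoid cells) are in lung. The 69 genes described here are those 72 without the free fatty acid receptor genes Ffar1, Ffar2 and Ffar3, and they were chosen by their place in that list and not by any measured value. They form a small part of the 55401 genes in the count tables and of the 21897 that are annotated as protein coding. Of the 69, 32 are secretoglobin genes of the Scgb1b and Scgb2b families and 37 are other genes, among them Fxyd5, Psenen, Cox6b1, Tmem147, Lin37, Lsr, Dmkn and Cd22. In GRCm38 they run from chr7:30539134, the start of Proser3, to chr7:33945040, the end of Scgb2b26, over 3.41 Mb.

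RNA of lung ILC2s from wild-type female mice was sequenced in 2 experiments with 26 libraries. In the first, ILC2s of untreated (naive) mice were sorted from the lungs of 3 mice each of the C57BL/6J and CC030/GeniUnc strains as lineage-negative cells with CD90, CD127, CD25 and ICOS on their surface, 1 library a mouse. CC030/GeniUnc belongs to the Collaborative Cross, a panel of inbred lines that each mix the genomes of several founder strains. The second used 5 CC030 mice, whose sorted ILC2s (lineage-negative, with CD90, CD127 and ST2) were kept apart by mouse and cultured with IL-33 and TSLP at 10 ng/mL each and human IL-2 at 100 U/mL, and the cells of each mouse received either DMSO vehicle or AR420626 (10 µM), an agonist of the free fatty acid receptor FFAR3, and were taken at day 2 and at day 6, which gives 4 groups of 5 libraries. Every cultured group therefore carries the CC030 genome and the 3 cytokines, and no C57BL/6J cells were cultured among these libraries.

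ILC2s are tissue lymphocytes without antigen receptors that answer epithelial alarm cytokines with type 2 cytokines. The genes of the interval have little in common beyond their address. Some serve every cell, such as a subunit of the respiratory chain, a subunit of the gamma-secretase protease and a protein of the endoplasmic reticulum, while others are known from single tissues, such as the acid pump of the stomach, the iron hormone of the liver, the myelin and B cell Siglecs and the outer layers of the skin. Secretoglobins are small secreted proteins of glands and mucosa, and the Scgb1b and Scgb2b genes encode the subunits of androgen-binding proteins known from mouse saliva and tears.

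The gene starts of the interval differ in base composition. The 4 promoter windows below, each of 300 bases on the minus strand of GRCm38.p6, were taken from RefSeq and are shown because they run from the window with the most CG dinucleotides among the expressed members to a secretoglobin with none; no window of a member that is neither expressed nor a secretoglobin is printed. Each CG is in capitals.
Tmem147, chr7:30729485-30729784: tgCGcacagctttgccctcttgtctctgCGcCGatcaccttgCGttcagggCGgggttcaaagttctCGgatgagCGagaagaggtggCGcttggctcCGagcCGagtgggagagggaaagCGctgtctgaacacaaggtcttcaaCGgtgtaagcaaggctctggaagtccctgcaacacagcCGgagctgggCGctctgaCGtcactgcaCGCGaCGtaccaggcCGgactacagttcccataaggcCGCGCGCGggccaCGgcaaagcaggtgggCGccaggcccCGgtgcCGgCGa
Psenen, chr7:30563155-30563454: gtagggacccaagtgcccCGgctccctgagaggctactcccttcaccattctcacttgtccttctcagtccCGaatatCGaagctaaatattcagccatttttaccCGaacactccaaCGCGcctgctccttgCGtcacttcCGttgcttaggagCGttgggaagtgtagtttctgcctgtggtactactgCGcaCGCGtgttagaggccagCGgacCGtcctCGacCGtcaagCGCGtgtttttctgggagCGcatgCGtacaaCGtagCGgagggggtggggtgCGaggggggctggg
Fxyd5, chr7:31042282-31042581: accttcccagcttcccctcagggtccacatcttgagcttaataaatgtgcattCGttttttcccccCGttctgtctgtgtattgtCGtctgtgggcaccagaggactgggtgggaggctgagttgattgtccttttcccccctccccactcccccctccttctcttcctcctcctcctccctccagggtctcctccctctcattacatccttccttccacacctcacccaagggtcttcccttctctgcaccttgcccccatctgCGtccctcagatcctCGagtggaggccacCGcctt
Scgb2b17, chr7:33056503-33056802: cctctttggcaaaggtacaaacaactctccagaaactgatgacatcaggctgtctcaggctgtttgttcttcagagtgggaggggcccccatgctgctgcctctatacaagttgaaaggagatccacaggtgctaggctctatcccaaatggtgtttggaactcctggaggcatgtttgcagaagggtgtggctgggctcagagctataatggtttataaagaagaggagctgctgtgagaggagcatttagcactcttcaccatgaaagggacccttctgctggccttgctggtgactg
The Tmem147 window holds 28 CG, that of Psenen 23, that of Fxyd5 6 and that of Scgb2b17 0.

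The libraries differ in depth and in how well they show the sorted cell type. Totals assigned to genes were 13533363 to 15234305 counts in C57BL/6J, 1324595 to 1524751 in naive CC030 and 227445 to 5320028 in the cultured libraries, and no 2 libraries were identical. The 10 ILC2 marker genes (Gata3, Il7r, Il1rl1, Icos, Il2ra, Thy1, Rora, Id2, Arg1, Klrg1) summed to 7991 to 11900 CPM (counts scaled to a common library total) in C57BL/6J, 258 to 279 in naive CC030 and 60.6 to 569 in the cultured libraries, so the labelled cell type is plain in the C57BL/6J libraries and faint under the same gene names in the CC030 ones. C57BL/6J library 3 stood apart from the other two: Sftpc, a surfactant gene of alveolar epithelium, had 1, 4 and 172153 counts in libraries 1, 2 and 3, the macrophage gene Lyz2 had 1, 167 and 14729, and the B cell gene Cd79a had 9, 21 and 251. The 10 epithelial and keratinocyte markers summed to 107 to 10030 CPM over these libraries, and the 8 B cell markers to 10.8 to 79.8 CPM. Not every marker on these lists rose in library 3. Krt10 had 811, 1016 and 435 counts and Scgb1a1 161, 7 and 115. The myeloid genes Itgam, S100a8, S100a9 and Siglecf had 0 counts in each library, and the B cell gene Cd79b had 126, 404 and 813. Counts of expressed members, and the members that are highest in library 3 and expressed, are also given without it.

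Of the 69 genes, 10 were expressed in naive C57BL/6J ILC2s, meaning at least 1 CPM in each of the 3 libraries, and all 10 were among the 37 genes that are not secretoglobins. Across all 21897 protein-coding genes the same definition held for 34.7%. A further 14 members had at least 1 count somewhere, which makes 24, and 45 were at 0 in every C57BL/6J library. The 69 genes together took 46455 to 71213 counts a library. Fxyd5, Cox6b1, Tmem147, Lin37 and Psenen alone took 99.2%, 98.5% and 92.3% of these counts in libraries 1, 2 and 3. In a bulk library, fewer cells that use a gene and less RNA in each cell cannot be told apart, so these are levels of the sorted population.

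**Figure D1:**
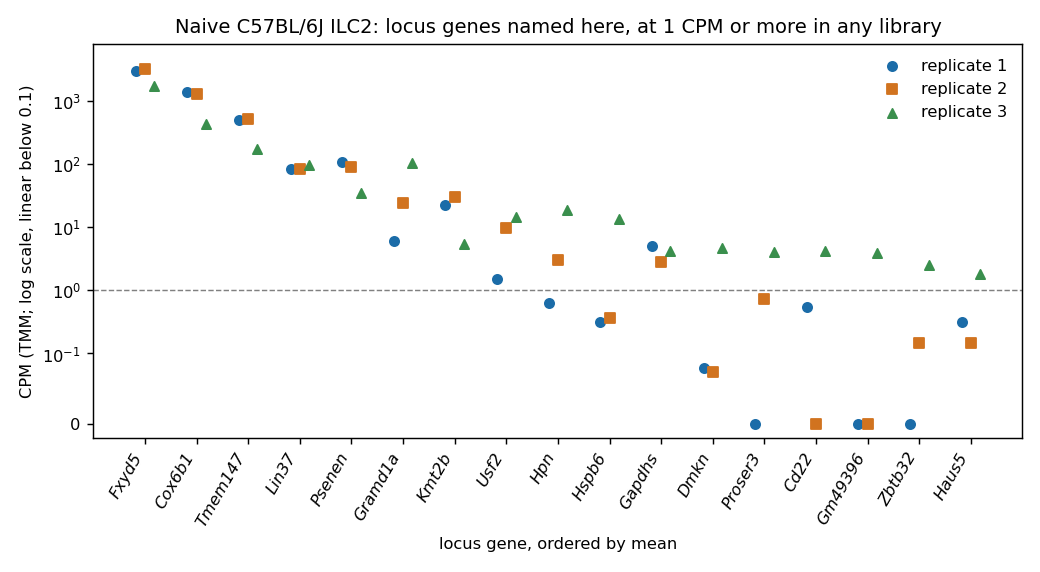
Level of locus genes that reached 1 CPM in any naive C57BL/6J library, ordered by their mean, in CPM on a log scale, 1 point for each of the 3 libraries. Fxyd5, Cox6b1 and Tmem147 stand above the others in all 3 libraries, Gramd1a is as high as Lin37 in library 3 only, and several of the remaining genes reach 1 CPM (dashed line) in library 3 alone.

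Fxyd5, which encodes dysadherin, a single-pass regulator of the sodium pump, had the most counts of the interval, though Cox6b1 was higher per kilobase. It had 38300, 43415 and 30162 counts in libraries 1 to 3, a mean of 2657 ± 801 CPM (SD, n = 3), and ranked 21st of the 21897 protein-coding genes by CPM. The 3 libraries were of the same order, with library 3 lowest. Fxyd5 lies at chr7:31032722-31042481 on the minus strand. None of the other FXYD genes of the interval was seen: Fxyd1, Fxyd3 and Fxyd7 had 0 counts in all 3 libraries. Of the 13 genes on a list of sodium pump subunits and FXYD proteins, 4 were expressed, with Fxyd5 first at 634 CPM per kb and then Atp1b3, a beta subunit of the pump, at 58.2.

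Among the organelle and housekeeping genes, Cox6b1, a nuclear-encoded subunit of cytochrome c oxidase, had 17301, 17451 and 7439 counts, or 1028 ± 521 CPM (SD, n = 3). Tmem147, a membrane protein of the endoplasmic reticulum that sits beside the Sec61 channel, had 6293, 6911 and 3003 counts, or 394 ± 191 CPM (SD, n = 3). Psenen, the gamma-secretase subunit PEN-2, had 1350, 1199 and 599 counts, or 76.6 ± 37.6 CPM (SD, n = 3). For these genes libraries 1 and 2 were close together and library 3 was lower.

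The 3 genes also stood high among their partners when levels were put per kilobase of exon, which allows for gene length. Cox6b1 reached 1452 CPM per kb and was the second of 15 nuclear cytochrome c oxidase genes, 12 of which were expressed, behind Cox6a1 at 2402 CPM per kb and ahead of Cox8a at 1271. Tmem147 reached 354 CPM per kb, the first of 6 genes of the Sec61 channel and the complex behind it, 4 of which were expressed, with Sec61b next at 349. Psenen reached 60.1 CPM per kb and led the 7 gamma-secretase genes, of which 4 were expressed; the catalytic subunit gene Psen2 stood at 20.9 CPM per kb and nicastrin (Ncstn) at 9.63.

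The remaining housekeeping genes were low or uneven. Gramd1a, which carries cholesterol from the plasma membrane to the endoplasmic reticulum, had 76, 333 and 1803 counts, or 44.8 ± 52.0 CPM (SD, n = 3), with most of the signal in library 3 and 15.3 CPM as the mean of the other two. Haus5, a subunit of the augmin complex that branches microtubules in the spindle, had 4, 2 and 32 counts and was the lowest of the 8 augmin genes per kb, 5 of which were expressed. Haus5 shares 56.5% of its exonic bases with the read-through transcript Gm21982, so that reads there can be discarded as ambiguous.

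Of the 5 chromatin and transcription factor genes, 3 were expressed. Lin37, a core subunit of the MuvB complex that represses cell cycle genes, had 1068, 1150 and 1657 counts, or 88.3 ± 6.25 CPM (SD, n = 3; 84.7 without library 3), and was the steadiest of the leading 5 genes over the 3 libraries. It led the 12 MuvB and DREAM genes at 63.6 CPM per kb, where 9 were expressed and its partners Lin9 and Lin54 were not. Kmt2b, a histone H3 lysine 4 methyltransferase, had 280, 414 and 95 counts, or 19.4 ± 12.8 CPM (SD, n = 3), and at 2.02 CPM per kb it was level with Kmt2c (2.14) and Kmt2a (1.99) and far below the shared subunit gene Dpy30 (410); of the 9 genes on that list 8 were expressed. Usf2, a basic helix-loop-helix factor that binds E-boxes, had 19, 130 and 249 counts, or 8.48 ± 6.50 CPM (SD, n = 3; 5.55 without library 3), while its partner Usf1 had 0, 0 and 125. Zbtb32, a lymphocyte repressor, had 0, 2 and 43 counts, and Etv2, a factor of early blood and vessel development, had 0 in all 3.

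Gapdhs, the sperm form of glyceraldehyde-3-phosphate dehydrogenase, was expressed too. It had 63, 38 and 72 counts, or 3.98 ± 1.10 CPM (SD, n = 3), and was even over the libraries but near the limit of the definition. Gapdhs shares 10.1% of its exonic bases with the antisense gene Tmem147os (68, 52 and 95 counts). The strand setting of the counting was not given, and whether reads of Tmem147os were counted under Gapdhs was not tested.

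Per kilobase of exon the order of the expressed genes named here was Cox6b1, Fxyd5, Tmem147, Lin37, Psenen, Gramd1a, Usf2, Gapdhs and Kmt2b. Cox6b1 had 1932, 1820 and 606 CPM per kb, Fxyd5 723, 765 and 415, and Tmem147 448, 459 and 156, an order that held in 3 of 3 libraries although the ranges of neighbours overlapped. Lin37 (60.8, 61.2 and 68.8 CPM per kb) and Psenen (83.7, 69.4 and 27.1) changed places between libraries and are not separated beyond their spread. Only 2 steps in the order left no overlap between neighbours, the one from Tmem147 to Lin37 and the one from Psenen to Gramd1a. Below Gramd1a, with 1.15, 4.69 and 19.8 CPM per kb, no neighbours were separated.

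Genes known from other cell types were seen mainly in library 3. Cd22, an inhibitory Siglec of B cells, had 7, 0 and 73 counts. Dmkn, a secreted keratinocyte protein, had 1, 1 and 82, and Hspb6, a small heat shock protein of muscle, had 4, 5 and 237. In each case library 3 lay far above the other two, the library in which Sftpc, Lyz2 and Cd79a were also high. Whether cells other than ILC2s account for the counts was not tested. Proser3 (0, 10 and 70), Gm49396 (0, 0 and 67), Zbtb32 and Haus5 were highest in library 3 too, and Hpn, the membrane protease hepsin, had 8, 41 and 331 counts. Library 3 held 18 members at 1 CPM or more against 10 and 11 in libraries 1 and 2, and it also held more protein-coding genes at that level, 10402 against 8853 and 8886. Leaving out library 3 kept the number of expressed members at 10, and leaving out library 1 raised it to 11 by adding Hpn.

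The barrier genes Lsr, Upk1a, Sbsn and Krtdap were at or next to 0. Lsr, the angulin that seals corners where 3 epithelial cells meet, had 0, 0 and 1 counts at this depth, and of the 4 genes on its list of angulins and tricellulin 0 were expressed. Lsr shares 43.6% of its exonic bases with the antisense gene Gm4673 (7, 20 and 5 counts), and the strand setting of the counting was not given in the sources used here. Fam187b beside it, the myelin Siglec gene Mag, the gastric pump gene Atp4a, the hepcidin genes Hamp and Hamp2 and the Schwann cell ligand gene Lgi4 had 0 counts in every C57BL/6J library.

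The 32 secretoglobins were silent at this depth. In each C57BL/6J library they summed to 0 to 2 counts, and 28 of 32 had none in any library. The 4 with a count were Scgb1b7, Scgb2b7, Scgb1b10 and Scgb2b21, with 1 count each. A count of 0 allows up to 3 counts, or 0.209 CPM at the mean C57BL/6J total, as far as counting error goes. Since the transcripts of these genes resemble each other (59.1% to 100% identity with the most similar other member, median 95.5%, and 17 of 32 at 95% or more), a read that matched several of them would not be assigned to any, and absence cannot be read from the 0 alone. Overlap of exons touches other members too: 21 of the 69 share exonic bases with another annotated gene, and 8 share over 40%, among them Igflr1 (99.8% with Gm49396), Rbm42 (75.4% with Gm21982) and the splicing factor gene U2af1l4 (66.1%). U2af1l4 had 0, 2 and 1 counts, while the other 3 genes on the list of U2AF splicing factors were expressed.

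RefSeq windows of 300 bases were found for 55 members. Where a gene had several windows, the one with the most CG was kept, for members and for all protein-coding genes. The numbers are therefore maxima over the annotated starts of a gene. In the 7 expressed members with a window the number of CG ran from 4 (Gapdhs) to 28 (Tmem147) with a median of 14, and 4 of 7 (57.1%) held 10 or more; Cox6b1 had 17, Lin37 14 and Gramd1a 8. The 24 members that were not expressed and are not secretoglobins had a median of 7, and 9 of them (37.5%) held 10 or more. The 24 secretoglobin windows held 0 to 3. Among all protein-coding genes 61.4% of windows held 10 or more, 89.0% of those of expressed genes and 45.5% of the others. The classes overlapped: Fxyd5, the member with the most counts, had 6 and is below that mark, while U2af1l4 (25), Proser3 (23), Rbm42 (18), Haus5 (17), Lsr (16) and Fam187b (14) were not expressed and are above it. Psenen shares 235 of its 300 bases with U2af1l4, which starts head to head with it and stood at 0.0684 CPM against 76.6. The letters C and G were counted as the pair CG, which reads the same on both strands.

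**Figure D2:**
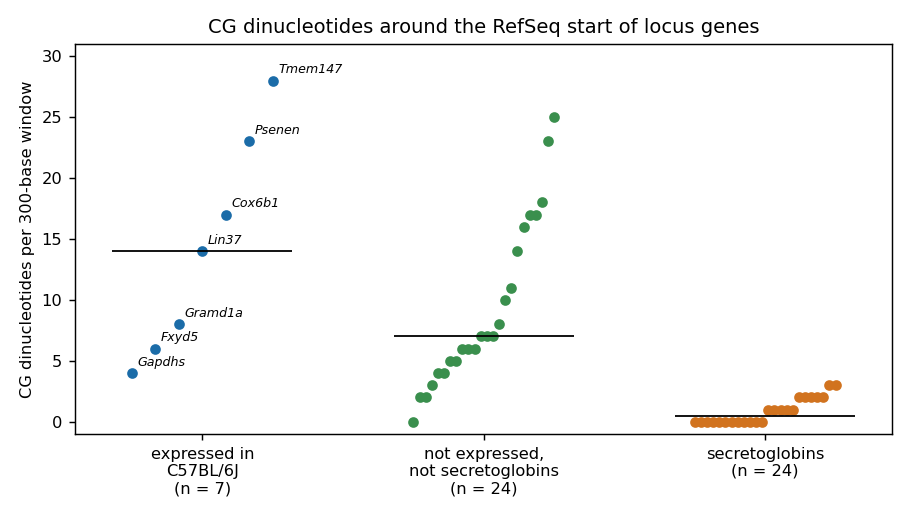
Number of CG dinucleotides in the 300 base RefSeq promoter window, 1 point a gene, for 7 members expressed in naive C57BL/6J, 24 not expressed that are not secretoglobins, and 24 secretoglobins, with a line at each median. The medians are 14, 7 and 0.5, and no secretoglobin window holds more than 3.

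The second question was how the same genes compare in naive CC030 ILC2s. The counts under these gene names behaved differently as a whole in CC030, and this was so for nearly all genes. By the same definition 42 of the 69 members were expressed in naive CC030, 11 of them secretoglobins, beside 90.1% of all protein-coding genes. At these totals 1 CPM is only 1 or 2 counts. The number of genes with any count was 43527 to 46111 in the CC030 libraries and 15946 to 16553 in the C57BL/6J libraries, although the latter have the higher totals. In naive CC030 the members' CPM followed exon length (Spearman correlation 0.743 over 69 genes, and 0.781 over all protein-coding genes), against 0.529 and 0.316 in C57BL/6J. These are descriptions across genes, which share their libraries and are not independent.

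Put per kilobase, the members of naive CC030 were close to all protein-coding genes and close to each other. Their median was 7.39 CPM per kb and the 90th percentile 17.6, beside 7.15 and 13.3 for all protein-coding genes, and the highest member was a secretoglobin, Scgb1b29, at 32.2. In C57BL/6J the median member was at 0 and the highest, Cox6b1, at 1400 CPM per kb on the same scale, which here is CPM of the plain library total. The 5 genes that lead the C57BL/6J libraries did not lead here: Fxyd5 had 18.1 CPM per kb, Cox6b1 14.8, Lin37 11.4, Psenen 7.97 and Tmem147 7.73.

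**Figure D3:**
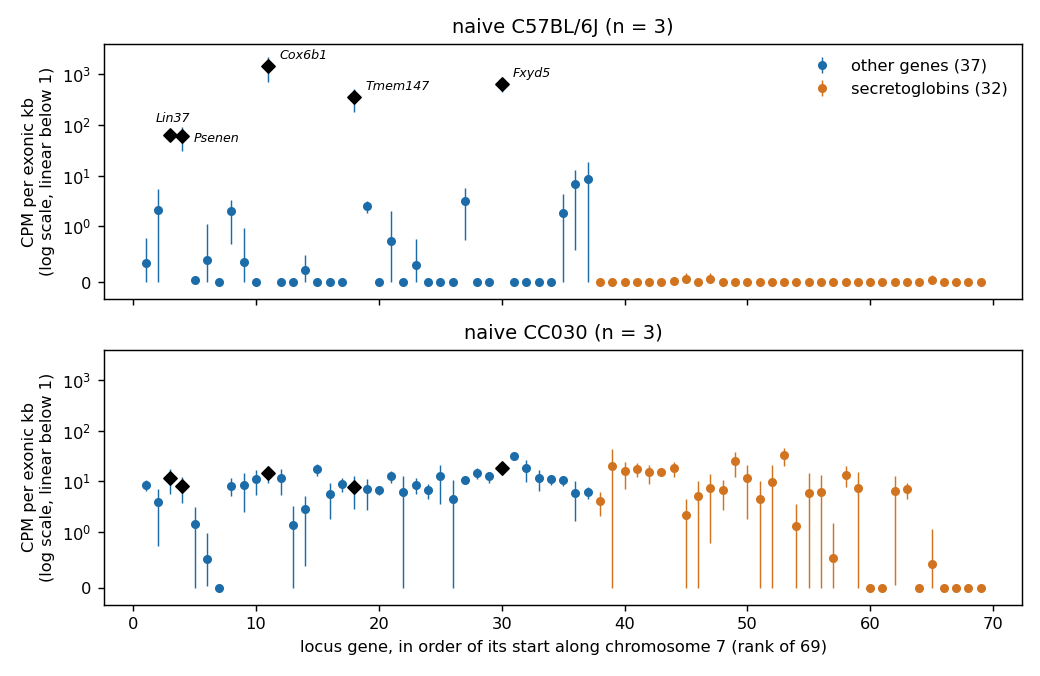
Mean level of each of the 69 locus genes in CPM per kilobase of exon (log scale, linear below 1), with bars of 1 SD over 3 libraries, in the order of the genes along chromosome 7, for naive C57BL/6J (top) and naive CC030 (bottom). Blue points are the 37 other genes, orange points the 32 secretoglobins and black diamonds Fxyd5, Cox6b1, Tmem147, Lin37 and Psenen, which stand far above the rest in C57BL/6J and among the other genes in CC030.

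The strains were compared with edgeR's quasi-likelihood test with Benjamini-Hochberg adjustment over the 35551 genes tested, of which 64.1% were called higher in CC030 and 12.2% lower. The log2 difference of the median gene was 7.03, or 7.56 with another scaling, so that a member's own difference has to be read against that shift. All members are protein coding, and that median was 3.28 when protein-coding genes were fitted alone and 0.02 over genes with 10 counts in every library. Of the protein-coding genes tested 51.0% were called higher and 17.3% lower. Of the 69 members 43 could be tested, 25 were called higher in CC030, 5 lower, and 13 did not pass, with a median log2 difference of 7.23. The 25 that were higher hold all 11 tested secretoglobins, and 23 of the 25 were at 0 in every C57BL/6J library and entered the test through CC030 alone. That filter left these 23 no direction other than higher. A floor of 3 counts in each C57BL/6J library bounds their ratios, from at least 16.4-fold to at least 282-fold. The last is for Fam187b (78, 67 and 112 counts in CC030). The bounds include the general shift between the strains and are no support for a difference of single genes. The lipoprotein receptor and junction gene Lsr, with 47, 34 and 56 counts in CC030 beside 0, 0 and 1, had a log2 difference of 8.60 (SE 1.06).

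The 5 members called lower in CC030 were the 5 leading genes of C57BL/6J. Fxyd5 had 71, 126 and 137 counts in the naive CC030 libraries, a log2 difference of -6.33 (SE 0.507, adjusted p = 0.000453 by edgeR). Cox6b1 had 17, 19 and 9 counts (log2 difference -7.82, SE 0.718), Tmem147 13, 20 and 4 (-6.72, SE 0.800) and Lin37 33, 20 and 14 (-3.68, SE 0.498), each with adjusted p = 0.000460. Psenen had 14, 23 and 7 counts (log2 difference -4.11, SE 0.682, edgeR adjusted p = 0.000779). For all 5 genes every CC030 library lay below every C57BL/6J library in CPM.

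Members with intermediate levels in C57BL/6J did not pass this edgeR test, though some passed in other forms of it. Kmt2b had 144, 69 and 125 counts in CC030, the highest CPM among the members there, and a log2 difference of 0.82 (edgeR adjusted p = 0.313). Gramd1a was at -1.68 (adjusted p = 0.138), Usf2 at 0.53 (0.585), Gapdhs at 0.27 (0.714) and Hpn at 1.32 (0.303). Cd22, with 38, 86 and 63 counts in CC030, was at 3.55 (adjusted p = 0.0609), and Dmkn, with 26, 47 and 50, at 2.91 (0.109). Without C57BL/6J library 3, which holds most of their C57BL/6J counts, Cd22, Dmkn, Hpn, Hspb6, Proser3, Zbtb32 and Haus5 were called higher in CC030 too. Cd22 was also called without library 2, and Proser3 without library 1, where Gramd1a was called lower. With all libraries, DESeq2 called Cd22, Dmkn, Proser3, Zbtb32 and Haus5 higher in CC030, and so did edgeR with the size factors of DESeq2. Leaving out library 1, 2 or 3 each kept 21 of the 30 strain calls. Lgi4 (49, 118 and 65 counts) and Fxyd3 (61, 97 and 70), whose exons overlap on opposite strands, completed the 6 most abundant members of naive CC030 by CPM, which are Kmt2b, Fxyd5, Fam187b, Lgi4, Fxyd3 and Hpn.

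Partner genes of the leading members were called in both directions, beside 51.0% higher and 17.3% lower among the protein-coding genes tested. The lists are given whole, with genes that could not be tested. Of 15 nuclear cytochrome c oxidase genes 11 were called lower in CC030 and 1 higher, of 7 gamma-secretase genes 3 were lower and 3 higher, of the 12 MuvB and DREAM genes 4 were lower and 2 higher, and of 13 sodium pump and FXYD genes 2 were lower and 8 higher. All 10 ILC2 markers were lower in CC030, with a median log2 difference of -6.07. Reads of the strains were aligned to different genome sequences, C57BL/6J to mm10 and CC030 to an mm9 pseudogenome with later conversion to mm10 positions, so strain and processing cannot be told apart in these differences.

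Whether CC030 counts lie under the right gene was examined by position. For 476 genes of chromosome 7, from 4 Mb before the first member to 4 Mb after the last, the CC030 level per kilobase was set against the C57BL/6J exon signal at the same place and at places shifted in steps of 500 bp up to 3 Mb to either side. In vehicle-treated cells at day 6 the Spearman correlation across genes was 0.190 in place and highest, 0.466, with the C57BL/6J signal taken at a shift of -785 kb, towards the chromosome start. With AR420626 at day 6 the highest value was at the same shift, 0.404 against 0.243 in place. On log2(value + 1) with Pearson's coefficient the corresponding values were 0.719 against 0.189 and 0.664 against 0.190. All 5 libraries of each day 6 group were higher at -785 kb than in place, as were 5 of 5 of vehicle day 2 and 4 of 5 of AR420626 day 2, whose own best shifts were -790 and -793.5 kb. By Pearson the day 2 tallies were 5 of 5 and 3 of 5. In naive CC030 the highest Spearman value was 0.289 at -410 kb, against 0.142 in place. The same shift came out over 8 Mb to each side (0.334 against 0.207) and over every other gene (0.329, and 0.246 in the genes left out), but by Pearson the highest value was 0.175 at 41.5 kb. At -785 kb only 1 of 3 naive libraries was higher than in place by Spearman and 0 by Pearson.

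**Figure D4:**
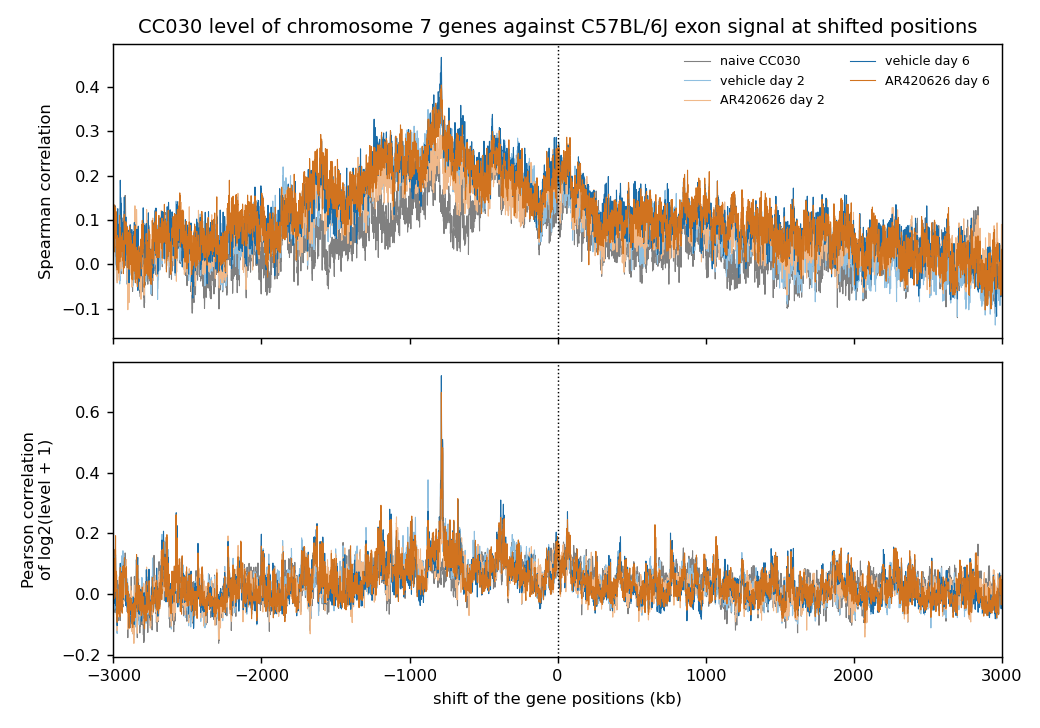
Correlation across 476 chromosome 7 genes between the CC030 level per kilobase and the C57BL/6J exon signal at a shifted position, against the shift, for the 5 CC030 groups, as Spearman's coefficient (top) and Pearson's coefficient of log2(value + 1) (bottom). Both day 6 groups peak at -785 kb, at 0.466 and 0.404 in the top panel, and the naive group is highest elsewhere, at -410 kb in the top panel.

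Some members with many counts in cultured cells have exons that, moved by -785 kb, meet genes expressed in C57BL/6J ILC2s. The exons of Lsr (277 bases) and of Fam187b (569 bases) then fall on exons of Capns1, the small calpain subunit gene, which had 1231, 1035 and 863 counts in C57BL/6J. Those of Hpn fall on Alkbh6 (302 bases), which had 1020, 1087 and 2648, and over 1056 bases on Syne4, which stood at 0.205 CPM. In vehicle cells at day 6 the symbol Capns1 itself stood at 3.03 CPM while Lsr stood at 522 and Fam187b at 334. Other members did not follow: Gapdhs meets C230062I16Rik (148 bases, 214 CPM in C57BL/6J) but stood at 1.71 CPM in vehicle cells at day 6, where C230062I16Rik under its own name stood at 356. Kmt2b and Scgb1b3 meet Zfp30 and Zbtb32, which stood at 0.178 and 0.875 CPM in C57BL/6J, but stood at 12.9 and 9.26 CPM in vehicle cells at day 6. Some members were low on both sides. Fxyd5 stood at 4.90 CPM in vehicle cells at day 6 and meets Wdr62, which stood at 1.75 in C57BL/6J. Psenen (9.94) meets Zfp84 (14.3) over all 1275 of its exonic bases, and Tmem147 (1.22) meets Zfp74 (10.9). In the other direction the exons of Fxyd5 meet the annotated pseudogene Gm6669 (388 bases, chr7:31817113-31818109), and those of Cox6b1 meet Scgb2b4-ps (47 bases, chr7:31401034-31403176). These 2 pseudogenes were picked after their values had been seen. Gm6669 was at 0 in the C57BL/6J libraries. It had 18, 23 and 13 counts in naive CC030 and 5847, 5060, 3432, 11407 and 5637 in vehicle cells at day 6. Scgb2b4-ps had 2173, 2001, 1185, 4693 and 1819 there, and it too was at 0 in C57BL/6J. The values below are therefore counts under a gene's name at its annotated place, and which transcript they come from was not tested beyond this comparison of positions.

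The third question was how counts under the members' names changed in cultured CC030 ILC2s with AR420626 and with time. The number of members at 1 CPM or more in every library was 27 in vehicle cells at day 2 (79.1% of protein-coding genes), 14 with AR420626 at day 2 (52.0%), 17 in vehicle cells at day 6 (50.2%) and 18 with AR420626 at day 6 (58.7%). These numbers also follow depth, which was lowest, at 227445 counts, in 1 library of AR420626 day 2. Over all 26 libraries 5 members had no count at all, Igflr1, Scgb2b19, Scgb1b21, Scgb2b24 and Scgb1b24.

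At day 6 AR420626 and vehicle were compared within mice, and 13 members could be tested. The test called 3.3% of 9421 genes higher with AR420626 and 8.14% lower. Among the members 1 was called higher and 1 lower. Scgb1b3, a secretoglobin, had 28, 4, 7, 20 and 27 counts in vehicle cells of mice 1 to 5 and 69, 22, 69, 51 and 53 with AR420626. It was higher with AR420626 in 5 of 5 mice, with a log2 difference of 2.28 (SE 0.355, edgeR adjusted p = 4.45e-05), and leaving out any mouse, or mice 4 and 5 together, kept adjusted p between 0.000147 and 0.00186. Moved by -785 kb, 264 of its 419 exonic bases fall on Zbtb32, which was not expressed in C57BL/6J and, with 10, 12, 1, 2 and 0 counts in vehicle cells, was too low to be tested. Which transcript gave these counts was not tested.

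Hpn was the member called lower. It had 208, 189, 134, 382 and 265 counts in vehicle cells and 104, 97, 66, 120 and 82 with AR420626, lower in 5 of 5 mice on the scaled level too, with a log2 difference of -0.79 (SE 0.233, edgeR adjusted p = 0.0229). The scaled ranges of the groups met at their edges, and the call was lost without mouse 1 (adjusted p = 0.0650), without mouse 2 (0.0564) or without mouse 5 (0.118). Lsr had 914, 773, 534, 1551 and 1118 counts in vehicle cells and 499, 452, 343, 422 and 397 with AR420626. Its scaled levels did not overlap between the groups and were lower in 5 of 5 mice, yet it missed the threshold by edgeR (log2 difference -0.66, SE 0.230, adjusted p = 0.0600) while DESeq2 called it. Fam187b, whose exons also meet Capns1, was at -0.39 (edgeR adjusted p = 0.302). Cd22 was at 0.80 (adjusted p = 0.279).

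**Figure D5:**
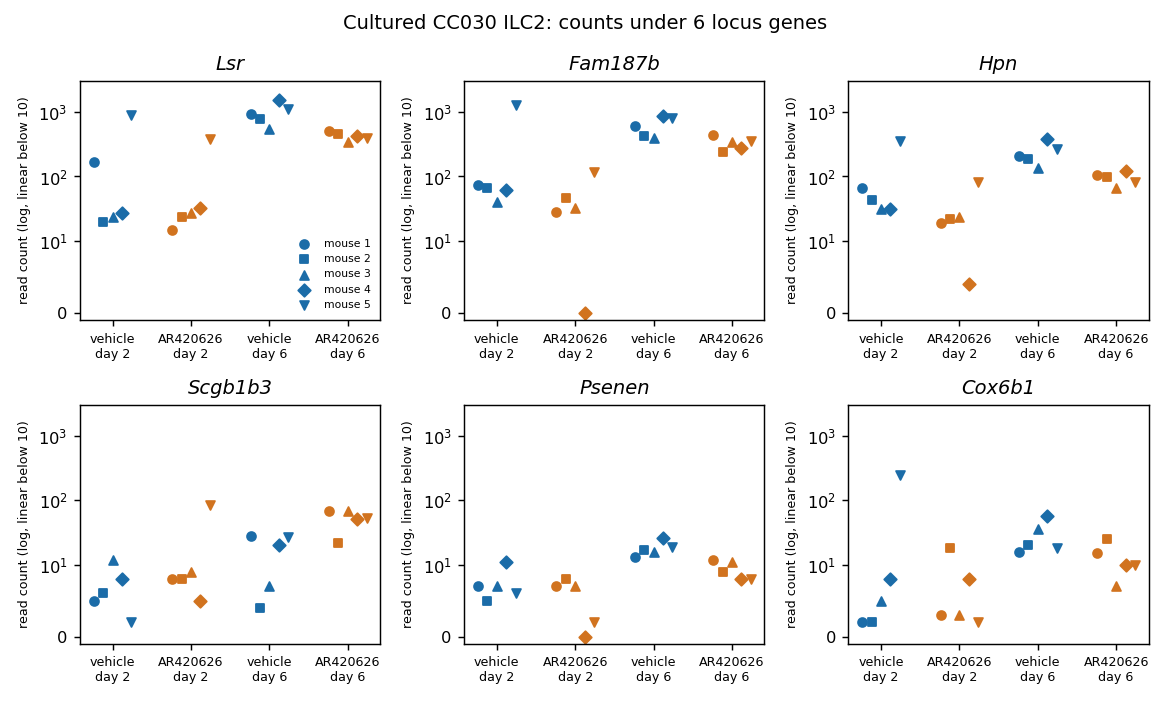
Raw counts under Lsr, Fam187b, Hpn, Scgb1b3, Psenen and Cox6b1 in cultured CC030 ILC2s, 1 point a library on a log scale, by day, with vehicle in blue and AR420626 in orange and 1 symbol for each of the 5 mice. At day 6 Scgb1b3 is higher and Lsr and Hpn are lower with AR420626 in every mouse, and at day 2 mouse 5 lies far above the other mice in several panels.

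Under the pseudogene names that the shift pairs with leading members, Gm6669 had 7646, 8721, 6739, 8517 and 6583 counts with AR420626 at day 6. Its level was higher than with vehicle in 5 of 5 mice, with a log2 difference of 0.86 (SE 0.249, edgeR adjusted p = 0.0210). Scgb2b4-ps had 1204, 927, 1147, 1200 and 1085 counts with AR420626, a log2 difference of -0.47 (edgeR adjusted p = 0.232).

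At day 2 no gene of any kind passed the comparison of AR420626 with vehicle by edgeR, 0.0% of 20865, with 403 at an unadjusted p under 0.05. Of the 20 members tested 0 passed, 1 had an unadjusted p under 0.05 (Hpn), and DESeq2 called 0. The difference between the AR420626 effects at day 6 and day 2 was tested directly. It was called for 0.0519% of 23141 genes (0.0389% higher, 0.013% lower), and among the 27 members tested for 0, with 2 at an unadjusted p under 0.05 (Upk1a and Scgb2b1) and 0 by DESeq2. For Scgb1b3 this difference was 0.39 and for Hpn 0.40 on the log2 scale, so an effect limited to day 6 was not shown for either.

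Time in culture was examined next, with the same day 6 libraries. In vehicle cells, day 6 was compared with day 2 within mice. Of 15819 genes 13.6% were called higher at day 6 and 3.73% lower, and of the 17 members tested 6 were higher and 0 lower. Psenen was among them, with 7, 5, 7, 11 and 6 counts at day 2 and 13, 17, 16, 26 and 19 at day 6. Its scaled levels did not overlap and were higher at day 6 in 5 of 5 mice, with a log2 difference of 2.20 (SE 0.543, edgeR adjusted p = 0.00997). This rests on low counts and on scaling. The TMM factors of mice 1 to 5 were 2.62, 1.36, 2.91, 2.12 and 0.254 at day 2. At day 6 they were 0.704, 0.900, 1.02, 0.383 and 0.720. Per plain library total (mouse 4: 1272248 counts at day 2, 3420893 at day 6) mouse 4 was lower at day 6 and the groups overlapped. The Psenen call was kept without mouse 1, mouse 4 or mouse 5. It was lost without mouse 2, without mouse 3, without mice 4 and 5 together, and with 10 counts required in every library. Lsr had 167, 20, 24, 27 and 894 counts at day 2, a log2 difference of 4.81 (SE 1.31, adjusted p = 0.0168). Fam187b had 75, 67, 40, 62 and 1270 at day 2 and 610, 429, 391, 864 and 792 at day 6. Its scaled level was higher at day 6 in 4 of 5 mice (log2 difference 3.58, SE 1.12, edgeR adjusted p = 0.0340).

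On scaled levels mouse 5 went the other way for Fam187b, Hpn and Cox6b1, each higher at day 6 in the other 4 mice. At day 2 it was above the other mice for Lsr as well. Its library totals were 5320028 counts at day 2, with a TMM factor of 0.254 in this comparison, and 1682519 at day 6. Per plain library total Fam187b and Hpn were higher at day 6 in mouse 5 too, and of these genes only Cox6b1 was lower. The other calls were Hpn (day 2 counts 67, 43, 31, 31 and 357, log2 difference 2.81, SE 0.891, edgeR adjusted p = 0.0365), Scgb1b3 (5, 6, 12, 8 and 2, 2.08, SE 0.675, adjusted p = 0.0405) and Cox6b1 (2, 2, 5, 8 and 241, then 16, 20, 36, 56 and 18 at day 6, 2.91, SE 0.990, adjusted p = 0.0494). The calls of Cox6b1, Lsr, Fam187b and Hpn rest on the pairing by mouse. Without it they were lost, and 2 of the 6 calls were kept. For Cox6b1 the log2 difference was then -0.64 (edgeR adjusted p = 0.743). The number of members called higher fell to 1 without mouse 1, mouse 3 or mouse 4 and to 0 without mouse 2, while without mouse 5 it was 7, with 5 of the 6 calls kept and Atp4a and Usf2 added. Gm6669 and Scgb2b4-ps were higher at day 6 as well, by 6.04 (edgeR adjusted p = 0.0167) and 6.00 (adjusted p = 0.00712) on the log2 scale.

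With AR420626, which shares no library with the vehicle comparison but the same mice, day 6 against day 2 gave 4 members higher and 0 lower of 18 tested, beside 10.0% and 1.14% of 14731 genes. Fam187b had 28, 46, 32, 0 and 119 counts at day 2 and 444, 239, 341, 280 and 351 at day 6, with no overlap of the scaled levels and a log2 difference of 4.20 (SE 0.959, edgeR adjusted p = 0.0151). Lsr had 15, 24, 27, 32 and 374 at day 2 (log2 difference 3.89, SE 1.07, adjusted p = 0.0314), Hpn 19, 22, 24, 4 and 82 (2.58, SE 0.551, adjusted p = 0.0107) and Scgb1b3 8, 8, 9, 5 and 85 (2.44, SE 0.641, adjusted p = 0.0263). In each of these genes mouse 5 was the highest at day 2. The 4 calls were lost without mouse 1, mouse 2 or mouse 3, with 0 members called, 1 was left without mouse 4, and all 4 were kept, with Usf2 added, without mouse 5. Without the pairing by mouse 2 of the 4 calls were kept, Lsr and Scgb1b3 were lost, and Usf2 was added.

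The day 6 comparison of AR420626 with vehicle called 3.3% of 9421 genes higher and 8.14% lower. Among the partner lists it called 1 gamma-secretase gene higher and 1 lower of 6 tested. It called 0 of the 8 MuvB and DREAM genes tested and 0 of 6 KMT2 genes tested. Of 15 cytochrome c oxidase genes only 1 was high enough to be tested. The positions of these partner genes on other chromosomes were not examined, so their counts carry the same doubt as those of the members.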

How the data were processed

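RNA was made into libraries with the SMART-Seq v4 Ultra Low Input kit, and the authors trimmed reads with fastp, checked them with FastQC and aligned them with STAR, C57BL/6J to mm10 and CC030 to an mm9 pseudogenome with conversion to mm10 positions by lapels. The deposited values are HTSeq counts per Ensembl gene, not normalized. The annotation, strand setting and overlap mode are not given in the sources used here. In the cultured libraries 2.06% to 11.1% of reads were in genes, 74.5% to 85.3% had no feature, 9.35% to 22.8% were not unique and 0.0195% to 0.0970% were ambiguous. These summary rows were left out of totals and tests.

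Symbols, exons and positions came from GENCODE vM21 (GRCm38) for 55141 of 55401 gene IDs. CPM used TMM scaling within each group, and a gene was called expressed at 1 CPM in every library. Comparisons were fitted over all genes with edgeR 4.0.16 (quasi-likelihood F-test, filterByExpr with minimum count 10 and total 15, TMM) in R 4.3.3, with Benjamini-Hochberg adjustment and a threshold of 0.05; DESeq2 1.42.0 was an alternative. The strain fit and the day 6 fit of AR420626 against vehicle were run on simulated counts, and the other comparisons were not. The simulated counts held no mouse effect, and in the strain simulation far fewer genes changed than were called in the data. The strain fit was therefore not tested under conditions like those of the data. The mouse was a block in cultured comparisons because the labels say that each mouse's cells were split; correlations of same-mouse deviations between vehicle and AR420626 at day 6 were 0.132, 0.373, -0.0827, 0.0654 and -0.0173. The strain comparison had no block. Position checks, correlations and figures were made in Python 3.11.15 (pandas 2.3.3, numpy 2.4.6, scipy 1.17.1).

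The members, gene lists and rules were chosen with earlier results of these data known. Named with values were members expressed in C57BL/6J, the 8 given marker members, members called in a cultured comparison, the 6 most abundant members of CC030 groups, up to 4 genes a partner list and genes reached by the position shift. Alternatives were other scaling, filters, tools, thresholds, the block and leaving out libraries. A few items that these rules would name are not reported here, though they stay in the counts.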

Additional observations from a re-analysis of the deposited data

Results flagged for a closer look

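Of 62 sets of 5 cultured libraries examined, 17 held a library beyond Dixon's critical value. The distance of that library from its nearest neighbour exceeded 0.710 times the range. About 1 in 20 independent, normally distributed sets would pass this value. Here the sets share libraries and their genes were chosen in part by their mean in these groups, so 1 in 20 is no baseline for them. Levels are CPM with TMM scaling within the group. Mouse 5 in vehicle cells at day 2 gave 9 of the 17. It stood at 909.4 CPM for Lsr (next 78.84), 1292 for Fam187b (next 35.41), 363.2 for Hpn (next 31.63), 416.1 for Atp4a (next 17.8) and 245.2 for Cox6b1 (next 4.142). It also stood at 131.2 for Fxyd5 (next 21.83), 123.1 for Usf2 (next 15.57), 33.57 for Cd22 (next 15.32) and 1749 for Gm6669 (next 474). This library had the highest total of all cultured libraries, 5320028 counts, and a TMM factor of 0.185 within its group. On plain library totals 2 of the 9 still passed, Fam187b (238.7 CPM, highest other 62.79) and Cox6b1 (45.3, highest other 6.288). Lsr was then at 168 against 139.8, and for Cd22, Fxyd5, Usf2 and Gm6669 (323.1 against 840.6) another mouse was higher.

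Mouse 5 with AR420626 at day 2 gave 5 more, at 505.4 CPM for Lsr (next 111.9), 160.8 for Fam187b (next 38.5), 110.8 for Hpn (next 25.09), 114.9 for Scgb1b3 (next 17.49) and 1626 for Scgb2b4-ps (next 381.3). The last 3 were Fxyd5 in mouse 2 with AR420626 at day 2 (125.5 CPM, next 50.18), Cd22 in mouse 3 with AR420626 at day 6 (44.3, next 20.22) and Scgb2b4-ps in mouse 4 with vehicle at day 6 (2160, next 1120). On plain totals Hpn and Scgb1b3 in mouse 5 with AR420626 at day 2 still passed, and the other 6 of these 8 did not.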

How the results depend on the processing

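Of the values of single named genes under the alternatives, 911 kept direction and side of the threshold, 28 newly passed, 48 no longer passed and 1 turned. In C57BL/6J, 5 members were expressed at 10 CPM. For the strains, members higher were 42 by DESeq2, 38 without a filter and 1 with 10 counts in every library (2 lower), since that filter removes members at 0 in C57BL/6J. Strain replicate numbers share only a number (correlations 0.0103, 0.0124 and -0.0143); with them as a block 28 members were higher. For AR420626 at day 6, members lower were 2 by DESeq2, 2 among protein-coding genes alone, 0 without a filter and 0 without mice 4 and 5, and members higher were 0 with 10 counts in every library and 2 without mice 4 and 5; leaving out 1 mouse gave 1 to 2 higher and 0 to 1 lower. For vehicle day 6 against day 2, members lower were 1 with DESeq2 size factors, and with 10 counts in every library 3 were higher and 1 lower; without the mouse block 2 were higher and Cox6b1 turned to -0.64. Leaving out 1 mouse gave 0 to 7 higher there and 0 to 5 with AR420626, where DESeq2 gave 8 higher and 1 lower and 10 counts in every library 1 higher. The best shift was -784.0 kb (vehicle day 2) and -785.0 kb (AR420626 day 2) by Pearson, and 41.5 kb in naive CC030. With every other gene it was -846.0 (AR420626 day 2) and -778.5 kb (AR420626 day 6). In steps of 50 bp, chosen after seeing the data and run only within 2 kb of -785 kb, the highest values were at -784.0 (vehicle day 2) and -785.05 kb (AR420626 day 2). In naive CC030 it was at -786.15 kb but only 0.115, below the 0.137 in place, so it is no best shift of that group. Where a count moved, the cause was not tested. Depth limits the CC030 libraries: 56 of 69 members could not be tested at day 6 with AR420626 against vehicle.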

Other observations

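Summed by role, the members fall apart in C57BL/6J and lie close together in naive CC030. The 4 FXYD genes summed to 1738 to 3205 CPM over the C57BL/6J libraries and 138 to 229 CPM over the naive CC030 libraries, and the 5 organelle and housekeeping genes to 742 to 1979 and 57.1 to 89.5 CPM. The 5 barrier and epithelial genes summed to 0.0738 to 4.78 CPM in C57BL/6J and 88.1 to 116 in naive CC030, the 3 immune and Siglec receptor genes to 0 to 4.21 and 49.3 to 94.9, and the 32 secretoglobins to 0 to 0.158 and 112 to 124. In CC030 each class therefore carried between 42.6 and 229 CPM a library except RNA splicing and binding genes, U2af1l4 and Rbm42, at 0 to 12.7 CPM.

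In the cultured libraries the secretoglobins summed to 26.9 to 45.6 CPM (vehicle) and 49.0 to 155 CPM (AR420626) at day 2, and to 15.2 to 32.6 CPM (vehicle) and 38.6 to 98.7 CPM (AR420626) at day 6. At day 6 only Scgb1b3 among them was at 1 CPM or more in every library of its group, in vehicle cells and with AR420626 alike. The remaining 37 members summed to 890 to 1497 CPM in vehicle cells and 696 to 1195 CPM with AR420626 at day 6.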
